A study of Zea mays with 2 samples.

Results

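The genes described here are 3 nuclear genes of maize (Zea mays) that encode photoprotective relatives of the light-harvesting proteins, out of 39634 genes in the deposited tables. They are GRMZM2G355752 and GRMZM2G425728, both annotated as early light-induced proteins, and GRMZM2G077333, annotated as the photosystem II 22 kDa protein and carrying the reference synonym psbs1. They were picked by identifier with their values known, so their levels in the libraries are given as a description and without a test. Leaves of cultivar Sugar 75 at the V5 stage were sequenced as 2 libraries. The control library came from plants without seaweed extract and the extract library from plants treated with it, in a series that concerns drought. Each library was a pool of 3 independent samples, analysed with 2 technical replicates per the series text. Whether both pools came from droughted plants, and which extract or dose was applied, is stated in no source used here. Each group has 1 library and no replicate spread, so every difference is one between 2 libraries, and a difference in the make-up of the leaf cannot be told apart from a difference in RNA per cell.

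Plants take in more light than they can use when growth is limited, and the light-harvesting protein superfamily includes members that protect the photosynthetic membrane and add little to light capture. Early light-induced proteins are thylakoid proteins that accumulate for a time during greening and under strong light, and in Arabidopsis they have been linked to the handling of free pigments. PsbS senses the acidification of the thylakoid lumen and switches on the fast part of non-photochemical quenching, by which excess light energy is released as heat. The xanthophyll cycle, in which violaxanthin is converted to zeaxanthin and back, acts beside it.

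Both early light-induced genes were higher in the extract library, 3.54-fold and 2.82-fold, while PsbS stood at 1.30 times its control level. The level is given as FPKM, a fragment number divided by gene length and library size, so levels can be compared between genes. GRMZM2G355752 had 149.9 FPKM (deposited interval 145 to 155) in the control library and 531 FPKM (521 to 541) in the extract library. GRMZM2G425728 had 84.0 FPKM (80.2 to 87.8) in the control library and 237 FPKM (229.8 to 244) in the extract library. Neither gene's intervals overlapped between the libraries. The same was so, at a higher level in the extract library, for 28.6% of the 16272 genes that reached 1 FPKM in either library. An interval here reflects only how well 1 library was quantified, and says nothing of the spread between plants. PsbS was the most abundant of the 3 genes in both libraries, with 683 FPKM (653 to 713) in the control library and 891 FPKM (852 to 929.8) in the extract library.

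Set against each other, the opposite ends of the intervals allowed a fold of 3.37 to 3.73 for GRMZM2G355752, 2.62 to 3.05 for GRMZM2G425728 and 1.20 to 1.42 for PsbS. On the scale log2((extract + 1)/(control + 1)), used for all genes below, the values were 1.82, 1.49 and 0.38. The spans of the 3 genes did not overlap each other. The order of the levels was the same in both libraries, PsbS first, GRMZM2G355752 next and GRMZM2G425728 last, with no overlap of intervals between neighbours. The distances within that order differed: PsbS stood at 4.56 times the level of GRMZM2G355752 in the control library and at 1.68 times in the extract library. The ratio of the early light-induced genes to each other was 1.78 in the control library and 2.24 in the extract library.

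**Figure D1:**
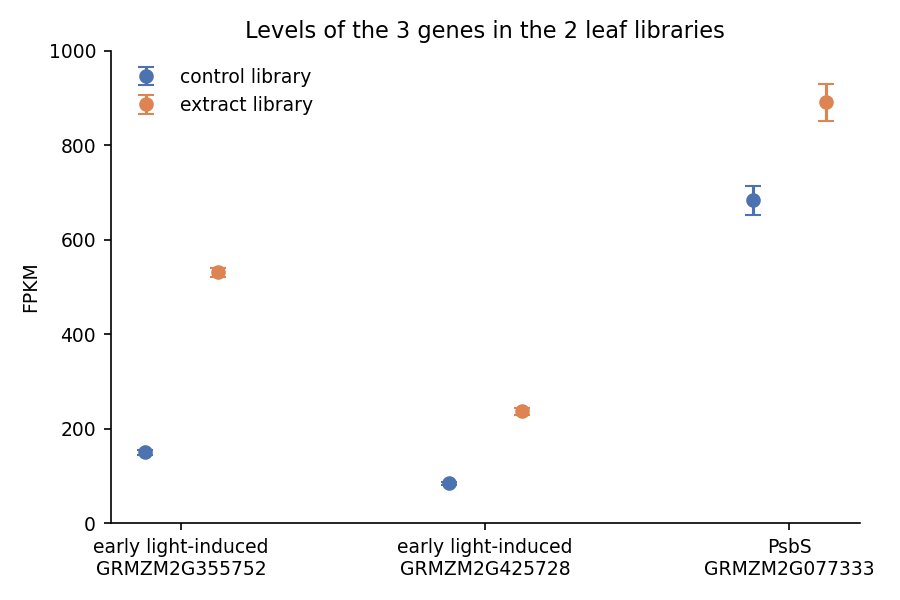
Level in FPKM (vertical axis) of the 3 genes in the control library and the extract library, 1 point per library, with bars for the deposited interval. The early light-induced genes stand at 149.9 and 84.0 FPKM in the control library and at 531 and 237 FPKM in the extract library, while PsbS has 683 and 891 FPKM.

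The whole library was itself shifted, which matters most for PsbS. Over 14279 genes with at least 1 FPKM in both libraries, the median gene lay 0.27 above its control level in the extract library, as log2 of the plain ratio. With the libraries centred on that gene, GRMZM2G355752 kept a log2 ratio of 1.55 and GRMZM2G425728 one of 1.22. The centred value of PsbS was 0.12, and its centred fold of 1.08 spanned 0.994 to 1.18, so its intervals then overlapped. The authors' deposited tables of fold changes sit on nearly the centred scale: their log2 values were lower than those of the deposited FPKM by a median of 0.27 over 895 genes. None of the 3 genes is among the 380 genes of the authors' deposited table of higher genes, where the largest p-value is 0.05, or among the 631 genes of the authors' deposited table of lower genes.

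Genes were called higher or lower at a log2 ratio of at least 1 or at most -1. Of 16272 genes that reached 1 FPKM in either library, 604 (3.71%) passed the upper limit and 410 (2.52%) the lower, and after centring 332 (2.04%) and 552 (3.39%). All 3 genes are among the 16272. Both early light-induced genes were among the higher ones, but the genes were chosen with this contrast in view, so the counts and places that follow only describe where they lie. Among 321 genes that reached 100 FPKM in either library, higher genes were 20 (6.23%) and lower genes 55 (17.1%). In that abundant class 4 genes had a larger log2 ratio than GRMZM2G355752, 12 had a larger one than GRMZM2G425728 and 106 had a larger one than PsbS. Of the 20 abundant higher genes, 8 are in the authors' deposited table of higher genes. By rank of level among all 39634 genes, which no scaling alters, GRMZM2G355752 was at place 164 in the control library and 31 in the extract library. GRMZM2G425728 was at places 315 and 85, and PsbS at 33 and 22. A rank also moves with the other abundant genes, of which 55 were lower and 20 higher, so a gene can gain places as others fall.

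**Figure D2:**
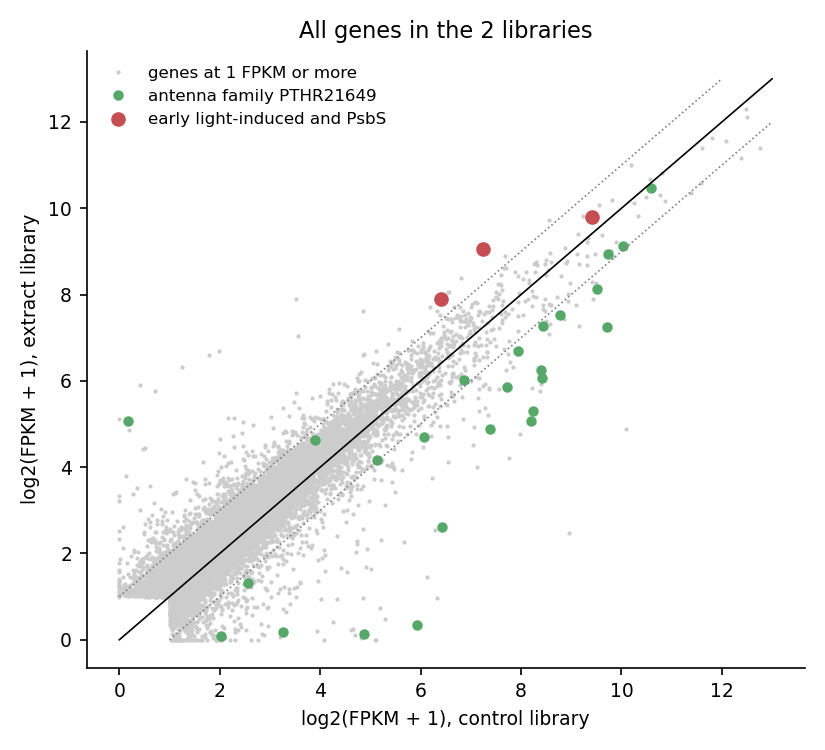
Level of each gene that reached 1 FPKM in either library, as log2(FPKM + 1) in the control library (horizontal axis) and the extract library (vertical axis), with the line of equal levels and dotted lines at a log2 ratio of 1 and -1. Both early light-induced genes lie above the upper dotted line, PsbS lies between the lines, and 18 of the 25 antenna family genes lie below the lower one.

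The libraries hold leaf RNA by their markers. The mesophyll gene pep1 (GRMZM2G083841), which encodes the carbon-fixing enzyme of the C4 cycle, had 1747 FPKM in the control library and 1262 in the extract library. The bundle sheath genes me3 (GRMZM2G085019), ssu1 (GRMZM2G098520) and RCA1 (GRMZM2G162200) had 944, 161 and 488 FPKM in the control library and 591, 36.1 and 255 in the extract library. All 4 markers had less in the extract library than in the control, opposite in direction to the early light-induced genes, and their part in the results was not tested. Genes annotated as zein, the seed storage protein, reached at most 8.31 FPKM, and pollen allergen genes at most 2.41 FPKM. The files hold no read totals, so depth is unknown. For genes at 10 FPKM or more, the upper bound lay a median of 8.65% above the value in the control library and 9.75% above it in the extract library, while for the 3 genes the distance was between 1.91% and 4.55%.

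All 3 genes carry the Pfam domain PF00504, the chlorophyll a/b binding domain that they share with the antenna proteins. Within that domain family the early light-induced genes were near the upper end by log2 ratio. PsbS (0.38) was the lowest of the 7 measured genes above 0, below the antenna family genes GRMZM2G018627 (4.89) and GRMZM2G131489 (0.73). The grouping that follows was made from the annotation columns after values had been seen. The domain is listed for 34 genes, 30 of which reached 1 FPKM in either library. Of those 30, 5 were higher and 18 were lower, beside 3.71% and 2.52% of all genes, and their median log2 ratio was -1.26 against 0.22 for all genes. The family annotation PTHR21649, that of the antenna proteins, covered 25 of the 30 genes, with 1 higher, 18 lower and a median of -1.39. Outside it were 5 genes, the 3 described here and another 2, with 4 higher and none lower. After centring 3 were higher and none lower, beside 2.04% and 3.39% of all genes. Both counts include the early light-induced genes, which were chosen with their values known. The sixth gene with the domain outside the antenna family was below 1 FPKM in both libraries.

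The other 2 genes outside the antenna family had levels close to those of GRMZM2G425728. GRMZM2G136960, annotated only by the domain, had 79.0 FPKM (74.6 to 83.4) in the control library and 196 FPKM (188 to 203) in the extract library, 2.48-fold higher. GRMZM2G004305 had 82.4 FPKM (77.3 to 87.5) and 184 FPKM (174 to 194), 2.23-fold higher. The description of this second gene names a chromo domain beside the Pfam entry, so its protein type is uncertain. After centring its log2 ratio was 0.88 and no longer past 1, while that of GRMZM2G136960 was 1.03.

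Antenna genes mostly had the opposite sign to the early light-induced genes. The list of antenna chlorophyll a/b binding genes, which also takes in GRMZM2G136960, had 2 higher and 18 lower genes among 26, beside 3.71% and 2.52% of all genes. Its median log2 ratio was -1.38 against 0.22 for all genes. After centring it had 2 higher and 22 lower genes, beside 2.04% and 3.39% of all genes, and a median of -1.64. The largest differences in it were at GRMZM2G414192, with 59.9 FPKM in the control library and 0.27 in the extract library, at GRMZM2G120619, with 28.1 and 0.091 FPKM, and in the other direction at GRMZM2G018627, with 0.13 and 32.4 FPKM. Near-identical antenna copies can exchange reads, so these single values are uncertain. GRMZM2G149428 (lhcb5), which encodes the minor antenna protein CP26, is 1 of the 3 genes that the files annotate with non-photochemical quenching, PsbS being another. It had 245 FPKM in the control library and 102 FPKM in the extract library. The third, GRMZM2G021107, of unknown function, had 2.64 and 3.74 FPKM with overlapping intervals. The authors' deposited table of lower genes holds 13 genes with the domain, all of the antenna family, and the authors' deposited table of higher genes holds none. Being listed there is not a call of significance, which the authors gave to 86 of the 631 lower genes. Among the antenna genes listed, GRMZM2G036880, GRMZM2G092427 (lhcb6) and GRMZM2G351977 (cab-m1) were marked significant. The others, lhcb5 among them, were not.

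**Figure D3:**
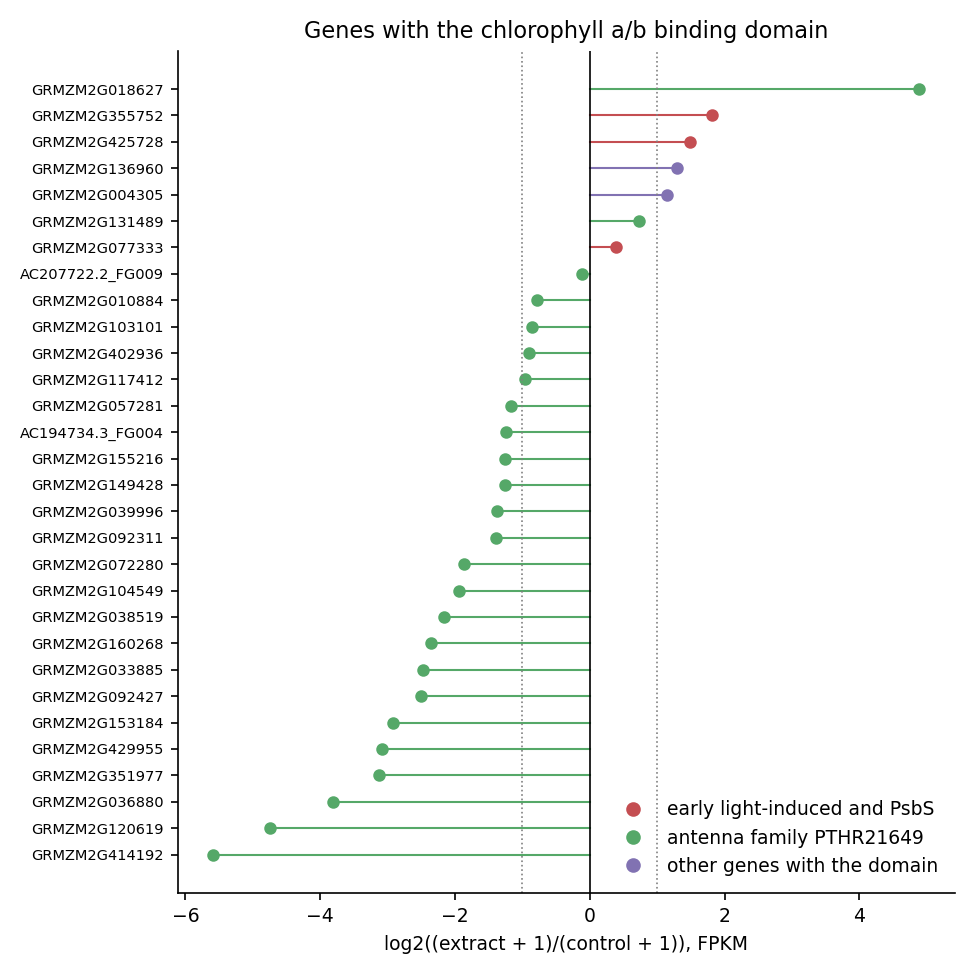
Log2 ratio of the extract to the control library (horizontal axis, FPKM with 1 added) for the 30 genes with the chlorophyll a/b binding domain and 1 FPKM or more in either library, ordered by value, with dotted lines at 1 and -1. The early light-induced genes (1.82 and 1.49) and PsbS (0.38) are among the 7 genes above 0, and 23 antenna family genes are below 0.

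The share of the 3 genes in the summed level of the domain family was larger in the extract library. The 34 genes summed to 9159 FPKM in the control library and 5840 FPKM in the extract library. Together the early light-induced genes made up 2.55% of that sum in the control library and 13.2% in the extract library. PsbS made up 7.46% and 15.3%, and the antenna family 88.2% and 65.1%. These shares move with the antenna genes as well as with the 3 genes, and the larger share of PsbS came with a summed antenna level of 8081 FPKM in the control against 3802 FPKM in the extract library. Of the summed FPKM of all genes, the 3 genes took 0.392% in the control library and 0.721% in the extract library.

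**Figure D4:**
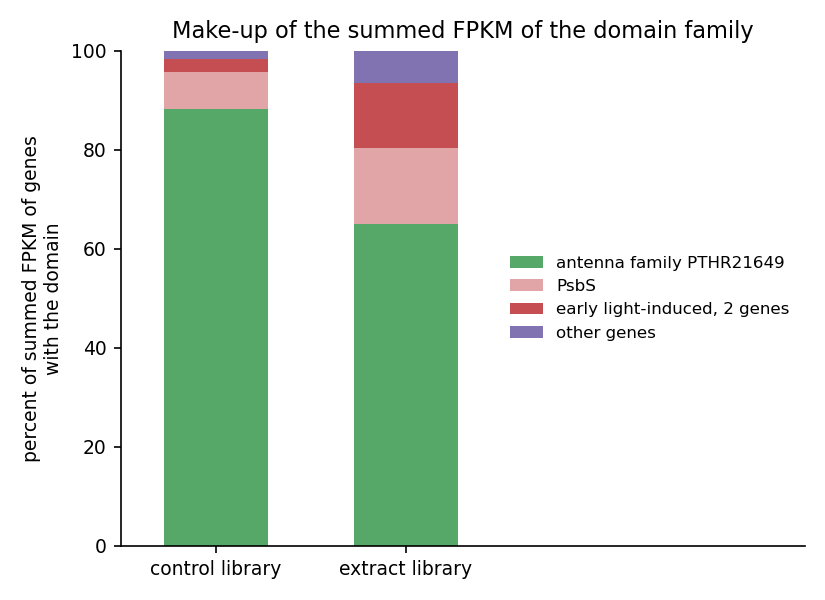
Share of the summed FPKM of the 34 genes with the chlorophyll a/b binding domain (vertical axis, percent) in each library, stacked by group. The antenna family takes 88.2% in the control library and 65.1% in the extract library, the early light-induced genes 2.55% and 13.2%, and PsbS 7.46% and 15.3%.

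Genes of the xanthophyll cycle and of energy dissipation, the process in which PsbS acts, had log2 ratios between -0.72 and 0.60. Of 18 genes in the list, 11 reached 1 FPKM in either library, and none of these 11 was higher or lower by a log2 ratio of 1, before or after centring. Of all genes 3.71% were higher and 2.52% lower (2.04% and 3.39% after centring), so that no called gene among 11 is close to the background. Their median was 0.30 (0.041 after centring), against 0.22 for all genes. Intervals that did not overlap placed 5 of them at a higher and 2 at a lower level in the extract library, where 28.6% and 8.76% of all genes were placed. After centring the counts were 1 higher and 3 lower, beside 13.5% and 16.2% of all genes.

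The enzymes that interconvert the cycle's pigments were as follows. Violaxanthin de-epoxidase (GRMZM2G027219), which makes zeaxanthin in strong light, had 26.5 FPKM (24.9 to 28.1) in the control library and 26.6 FPKM (24.8 to 28.4) in the extract library. Zeaxanthin epoxidase, which runs the cycle back, was annotated for 3 genes. The most abundant, GRMZM2G136344, had 131 FPKM (124 to 138) and 162 FPKM (154 to 170.5), GRMZM5G848550 had 25.5 and 39.3 FPKM, and GRMZM2G379053 had 12.3 and 13.8 FPKM. All 3 epoxidase genes had overlapping intervals after centring. The de-epoxidase was then at the lower value in the extract library (log2 ratio -0.25). Its centred fold was 0.834 (0.734 to 0.947), with intervals apart.

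Upstream enzymes that make the carotenoids were mostly small in difference as well. Among 3 beta-carotene hydroxylase genes, whose enzymes form zeaxanthin from beta-carotene, GRMZM2G164318 had 17.3 FPKM (15.7 to 18.8) and 25.1 FPKM (22.9 to 27.3) and stayed apart after centring. GRMZM2G152135 had 15.8 and 18.0 FPKM and GRMZM2G163683 had 1.33 and 1.86 FPKM, with overlapping intervals in both genes. Lycopene cyclases, which close the rings of the carotenoids, differed in sign: GRMZM5G849107 had 12.7 and 18.5 FPKM, whereas GRMZM5G851815 had 11.1 and 8.27 FPKM. The lycopene epsilon cyclase model GRMZM2G012966 had 5.67 and 3.06 FPKM, but it is described by a protein kinase domain and matches more than 1 reference gene. After centring its plain fold was 0.448 (0.356 to 0.559), which is past the lower limit. With 1 FPKM added its centred log2 ratio was -0.91, so it was not called lower. This locus is in the authors' deposited table of lower genes with a log2 fold change of -1.16, a p-value of 0.0236 and a q-value of 0.689.

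**Figure D5:**
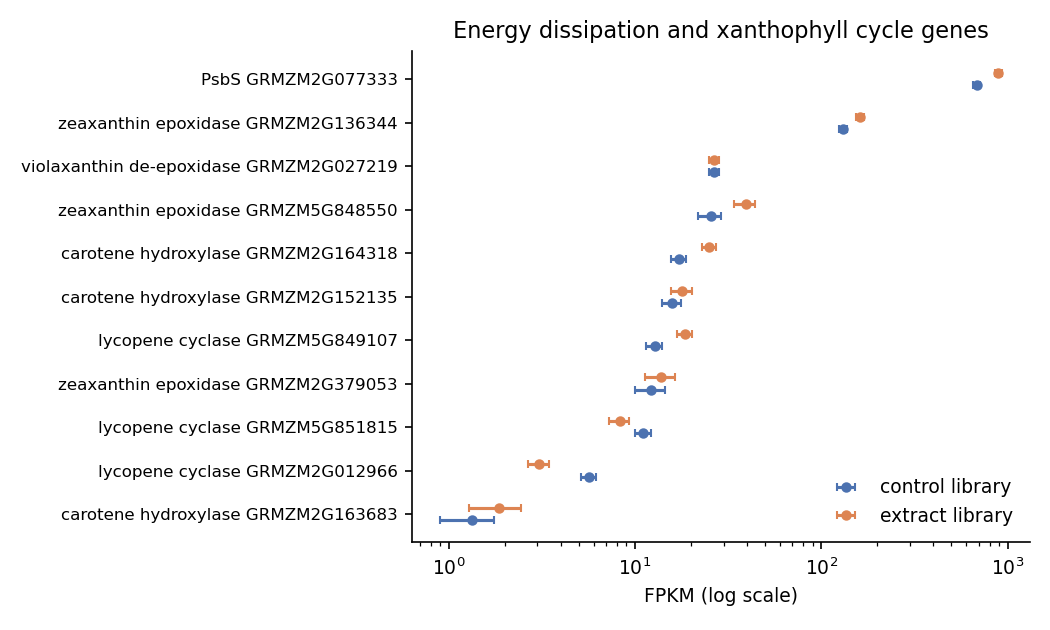
Level in FPKM (horizontal axis, log scale) of the 11 genes of the energy dissipation and xanthophyll cycle list in each library, with bars for the deposited interval. PsbS is the most abundant at 683 and 891 FPKM, and violaxanthin de-epoxidase is level at 26.5 and 26.6 FPKM.

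Genes that adjust or repair the thylakoid had 1 higher and 2 lower members among 27, beside 3.71% and 2.52% of all genes, and a median log2 ratio of 0.28 against 0.22 for all genes. After centring the counts were 1 higher and 3 lower, beside 2.04% and 3.39% of all genes, and the median was 0.027. The share of higher genes was that of all genes. The lower genes encode curvature thylakoid proteins, which bend the edges of the membrane stacks. GRMZM2G177508 had 82.8 FPKM in the control library and 29.9 in the extract library, GRMZM5G818058 had 101 and 45.1 FPKM, and GRMZM2G047720 of the same family had 246 and 141 FPKM. The 12 FtsH protease genes measured, of which some take part in the repair of photosystem II and others act in mitochondria, had a median of 0.30 with 1 higher and none lower, beside 3.71% and 2.52% of all genes. The higher one, GRMZM2G048836, named after its values were seen, was low in level, with 0.27 FPKM in the control library and 2.71 FPKM in the extract library. It is annotated as the chloroplast FtsH 6. The authors' deposited table of higher genes lists it with a log2 fold change of 3.03, not marked significant. FtsH2A (GRMZM2G110408) and FtsH2B (GRMZM2G087598), named after their values were seen, had 181 and 189 FPKM in the control library and 247 and 259 FPKM in the extract library, a log2 ratio of 0.45 in each.

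In Arabidopsis, early light-induced genes are under the control of photoreceptors and the factors downstream of them. Of 26 genes in the light signalling list, none was higher and 6 were lower, beside 3.71% and 2.52% of all genes, and the median log2 ratio was -0.03 against 0.22 for all genes. After centring none was higher and 7 were lower, beside 2.04% and 3.39% of all genes, and the median was -0.28. With so few genes in the list, a count of 0 higher is near the share of all genes. B-box zinc finger genes made up 13 of the 26 and 5 of the 6. GRMZM2G144346, a B-box gene, had 14.5 FPKM (13.2 to 15.8) in the control library and 2.62 FPKM (2.01 to 3.22) in the extract library. Another, GRMZM2G018876, had 41.4 and 66.6 FPKM. The gene glk1 (GRMZM2G026833), a Golden2-like factor whose family activates antenna genes in Arabidopsis, had 39.4 FPKM (37.1 to 41.8) and 15.7 FPKM (14.2 to 17.2). The 5 phytochrome and cryptochrome genes, which encode light receptors, ranged in log2 ratio from -0.44 to 0.11.

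By level in both libraries at once, some genes outside the family lay close to each of the 3. Likeness was the Euclidean distance in log2(FPKM + 1) over 2 libraries, among 28746 annotated genes. The closest to GRMZM2G425728 were see2b (GRMZM2G093032), a vacuolar processing enzyme gene with 92.6 and 264 FPKM at a distance of 0.21, a chloroplast ATP synthase subunit C locus (GRMZM2G458118) with 93.9 and 266 FPKM at 0.23, and GRMZM2G136960 at 0.29. GRMZM2G355752 had no gene as close: a leucine-rich repeat gene (GRMZM2G467147) with 204 and 474 FPKM lay at 0.47, GRMZM2G046849 of unknown function at 0.61 and the cysteine protease gene ccp1 (GRMZM2G098298) at 0.63. Closest to PsbS were a locus of the ATP synthase protein MI25 (GRMZM2G066111) at 0.19, a cytochrome c oxidase subunit I locus (GRMZM2G450825) at 0.30 and gpb1 (GRMZM5G845611), a glyceraldehyde-3-phosphate dehydrogenase gene, at 0.46. Only gpb1 of these 9 had the lower level in the extract library, with 779 and 667 FPKM.

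The 3 genes lie on separate chromosomes, at positions given as in the files, whose build is not named. GRMZM2G355752 is on chromosome 2 from 233550346 to 233551880, GRMZM2G425728 on chromosome 7 from 9701477 to 9702971, and PsbS on chromosome 3 from 174825200 to 174827787. Among the 2 gene models on either side of each of the 3 genes, log2 ratios ranged from -0.26, at GRMZM2G418450, to 0.23, at GRMZM2G367206, both beside GRMZM2G355752. Some of these models had 0 FPKM in both libraries, and GRMZM2G418450 had 0.77 and 0.48 FPKM. The added 1 FPKM keeps the log2 ratios of such low genes small, so the range says little of them. The nearest model to GRMZM2G425728, the heat shock factor gene GRMZM2G125969, had 1.03 FPKM in the control library and 0.71 in the extract library.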

How the data were processed

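Leaf RNA was isolated with a NucleoSpin RNA Plant kit and made into Illumina libraries, per the labels' protocols. Cufflinks 2.2.1, Cuffdiff, Bowtie2 2.2.6, TopHat2 2.1.0, cutadapt 1.8.1 and Picard 1.115 were used, per the submitters' processing notes, which state no role or order. No source used here names the genome build. One title names its library as control and the other only as a sample, taken here as the treated one because the series text states a control and a treated sample. The authors deposited FPKM with a lower and an upper bound for 39634 genes per library. The tables deposited by the authors for their own comparison hold a log2 fold change, a p-value and a q-value per gene. With 1 library on each side, such a test speaks of the libraries and not of the treatment. The 8 value columns of these tables whose names match no library label were not used.

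From these values, log2((extract + 1)/(control + 1)) was computed in Python 3.11.15 with pandas 2.3.3, for genes that reached 1 FPKM in either library. No p-value was computed. An FPKM of exactly 0 can be a missing estimate, so no plain fold was computed against it. The log2 ratio with 1 FPKM added does use such zeros, and the counts include them. An example is the lower B-box gene GRMZM2G110541, with 1.13 FPKM in the control library and 0 in the extract library. The 3 genes, the 6 gene lists and the tests were chosen with earlier results of these data known. Lists are patterns on gene symbols and descriptions, and genes caught only through a shared symbol, such as the leucine zipper genes ohp1 and ohp2, were left out. A gene under another name would be missed. Named are the 3 genes, all measured genes of the energy dissipation list, the 3 largest absolute log2 ratios at 10 FPKM or more in the other lists, and the 3 genes closest in level to each of the 3 genes. The genes grouped by the domain PF00504, those annotated with non-photochemical quenching, and the chromosome neighbours were chosen after values were seen. Reference symbols come from the RefSeq gene table (assembly Zm-B73-REFERENCE-NAM-5.0). They served for naming genes and were also among the symbols matched by the list patterns.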

Additional observations from a re-analysis of the deposited data

How the results depend on the processing

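No paired analysis was possible because each group has 1 library, and no library could be left out. Of 201 values under alternatives, 179 stayed within their interval or within 1.5 times their count, 22 moved, and no log2 ratio of the 3 genes changed sign. The 179 include the counts without a minimum FPKM, which could not move. With 1 FPKM added, a gene past either limit already has at least 1 FPKM in a library. The 179 also include the log2 ratios of the 3 genes at the nearest ends of their intervals. Those could have changed sign but could not have left their interval. Centring on the median gene moved the log2 ratios of GRMZM2G355752, GRMZM2G425728 and GRMZM2G077333 to 1.55, 1.22 and 0.12, upper quartile scaling to 1.54, 1.21 and 0.11, and the authors' scale, an alternative chosen after seeing the data, to 1.55, 1.21 and 0.11. The higher genes among all were 332, 323 and 327 under these 3 scalings. A pseudocount of 0.1 FPKM gave 1361 higher and 657 lower genes, one of 5 FPKM 154 and 162, and a minimum of 5 FPKM 400 and 242. With a pseudocount of 5 FPKM the thylakoid list and the tocopherol list had 0 higher genes and the light signalling list 3 lower ones, and a minimum of 5 FPKM also left the thylakoid list with 0 higher. By construction, a larger pseudocount shrinks the log2 ratios of low genes and a minimum removes such genes. The description of promoter motifs and protein features was not run.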

Other observations

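Tocopherols are lipid antioxidants that protect the thylakoid beside the proteins described above. Of 9 genes in the tocopherol list, 5 reached 1 FPKM in either library, 1 was called higher and none lower, beside 3.71% and 2.52% of all genes, with a median of 0.46 (0.24 after centring) against 0.22 for all genes. The gene past the limit, GRMZM2G154093, had 3.45 FPKM (2.75 to 4.14) in the control library and 11.1 FPKM (9.80 to 12.5) in the extract library. It is annotated as homogentisate 1,2-dioxygenase, an enzyme that breaks down homogentisate and does not make tocopherol, and is in the authors' deposited table of higher genes with a log2 fold change of 1.38, a p-value of 0.0103 and a q-value of 0.461. Of the synthesis enzymes, the tocopherol methyltransferase gene GRMZM2G035213 had 67.6 FPKM (63.5 to 71.6) and 93.0 FPKM (87.6 to 98.4), and the tocopherol cyclase gene GRMZM2G009785 had 30.3 and 37.4 FPKM, whose intervals overlapped after centring.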
